A study of Mus musculus with 12 samples.

Results

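Among the genes on the arrays, 294 still carried the name of a RIKEN clone from a library of adult mouse testis. They were found through the platform annotation, as genes whose probe sets had 1 symbol that began with 1700, 4921, 4930, 4931, 4932 or 4933 and ended in Rik. These prefixes held 178, 7, 66, 6, 5 and 32 genes. They were measured by 395 of the 29131 probe sets with 1 symbol, and made up 294 of 15965 named genes. The rule used symbols and no signal, though it was set with earlier results of these data known. In the RefSeq table of assembly GRCm38.p6, 281 of them were found, all under the clone name. They comprised 175 long noncoding RNAs, 98 protein-coding genes, 6 transcribed pseudogenes, 1 noncoding RNA pseudogene and 1 RNA of another class, and 13 were not matched. A further 409 genes with the name of a RIKEN clone from another library served for comparison.

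The RIKEN clone names come from a collection of full-length mouse cDNAs, in which the opening characters name the library. A gene keeps such a name until its product is studied, so the genes described here are mostly without an assigned function. The testis is a rich source of such transcripts, both because meiotic and haploid germ cells use many genes that other tissues do not and because their open chromatin yields many noncoding RNAs. Spermatogonia are the mitotic cells of the lineage. Pachytene spermatocytes are in the long prophase of meiosis, when the transcription factor MYBL1 switches on many germ cell genes, and round spermatids are the haploid cells in which CREM and RFX2 drive genes for the acrosome, the flagellum and the packing of sperm DNA.

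Mouse germ cells of 4 kinds gave the RNA, namely spermatogonia of type A and of type B, spermatocytes at the pachytene stage, and round spermatids. It was hybridised to the Affymetrix designs U74Av2, U74Bv2 and U74Cv2, which represented 7, 55 and 232 of the genes. The 12 arrays were 1 per cell type and design. Strain, age and isolation method are not given in the sources used here, and no genotype or treatment is named. With 1 array per group there was no replicate error and no test, and all differences below describe these arrays. Fewer cells of a type and less RNA per cell cannot be told apart in such samples.

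Signals are array units on a linear scale. A floor of 50.01 to 50.03 units was set under all signals, and a gene was called detected from 2 floors upwards, which is up to 100.1 units. Negative control probe sets exceeded the floor in 22 of 228 readings and the detection limit in 1, at 103.5 units on the type B U74Cv2 array. As a measure of technical spread, log2 ratios of control probe sets shared by the 3 designs varied with an SD of 0.26 between the spermatogonial types, 0.23 at the step into pachytene and 0.44 at the step into round spermatids. A ratio against a signal under the floor was computed against the floor and is written as "at least". This was so even where a negative control on that array read above the floor. For the genes named, a lower signal over the floor was treated otherwise. Where it was under the detection limit or below the brightest negative control on that array, it was replaced by the higher of these limits. Such a ratio is also written as "at least". Both kinds of "at least" ratio are not comparable with each other, and those against the floor can be overstated.

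The cell type labels were set against lists of marker genes. The lists were chosen with earlier results of these data known, so they are no independent check of the labels. Of the spermatogonial genes tested, 8 of 16 lay at least 4-fold under type B spermatogonia in the pachytene sample, beside 5.44% of all named genes. Of the pachytene genes, 16 of 18 were at least 4-fold higher, beside 7.9%. Of the round spermatid genes, 20 of 24 were at least 4-fold higher in round spermatids than in pachytene spermatocytes, beside 4.45%. Against the labels, Sycp3, a protein of the synaptonemal complex, read 60.4 units in pachytene spermatocytes, and the protamine gene Prm2 read 67.3 units in round spermatids. The spermatid gene Prm1 read 1321 units on the pachytene array and 14320 on the round spermatid array, and Tnp2 read 491.7 and 10431 units. Markers of somatic cells were also present. The 15 Sertoli cell markers summed to 10098, 7842, 5177 and 2272 units in type A, type B, pachytene and round spermatid samples, the 12 peritubular and fibroblast markers to 7697, 15644, 849 and 998 units, the 10 Leydig cell markers to 1410, 2198, 1496 and 978 units, the 10 leukocyte markers to 1225, 1666, 616 and 656 units, and the 7 erythroid and endothelial markers to 731, 1364, 411 and 423 units. In round spermatids 8 of the 15 Sertoli, 8 of the 12 peritubular, 8 of the 10 Leydig, 6 of the 10 leukocyte and 5 of the 7 erythroid and endothelial markers were at the floor. Their part in the members' values was not tested.

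Of the 294 genes, 251 exceeded the floor in at least 1 cell type and 206 were detected. The other 88 were not detected, and 43 of these stayed at the floor on every array. Of all 15965 named genes, 13003 exceeded the floor and 10702 were detected, so the members' detection was near that of the arrays at large. For the 409 other RIKEN clone genes these counts were 282 and 210. Detection was more frequent for protein-coding members, at 90.8% (89 of 98), than for long noncoding RNAs, at 57.7% (101 of 175). The shares and counts by stage that follow are over the detected genes unless another number is named.

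The testis-library genes came on late. The cell type of onset was taken as the earliest one, in the order of the lineage, with a detected signal. It was type A or type B spermatogonia for 93 of 206 genes (45.15%), pachytene spermatocytes for 74 (35.92%) and round spermatids for 39 (18.93%). Over all named genes the same shares were 87.5%, 8.51% and 3.97%. RIKEN clone genes of other libraries were closer to the array at large, with 84.29%, 10% and 5.71%. Onset depends on where the detection limit is put. With a limit of 1 floor the 3 shares became 63.7%, 21.5% and 14.7% for 251 members against 91.9%, 5.4% and 2.7% for all named genes, and with a limit of 4 floors they became 26.8%, 41.1% and 32.1% for 168 members against 77.7%, 15.8% and 6.5%.

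**Figure D1:**
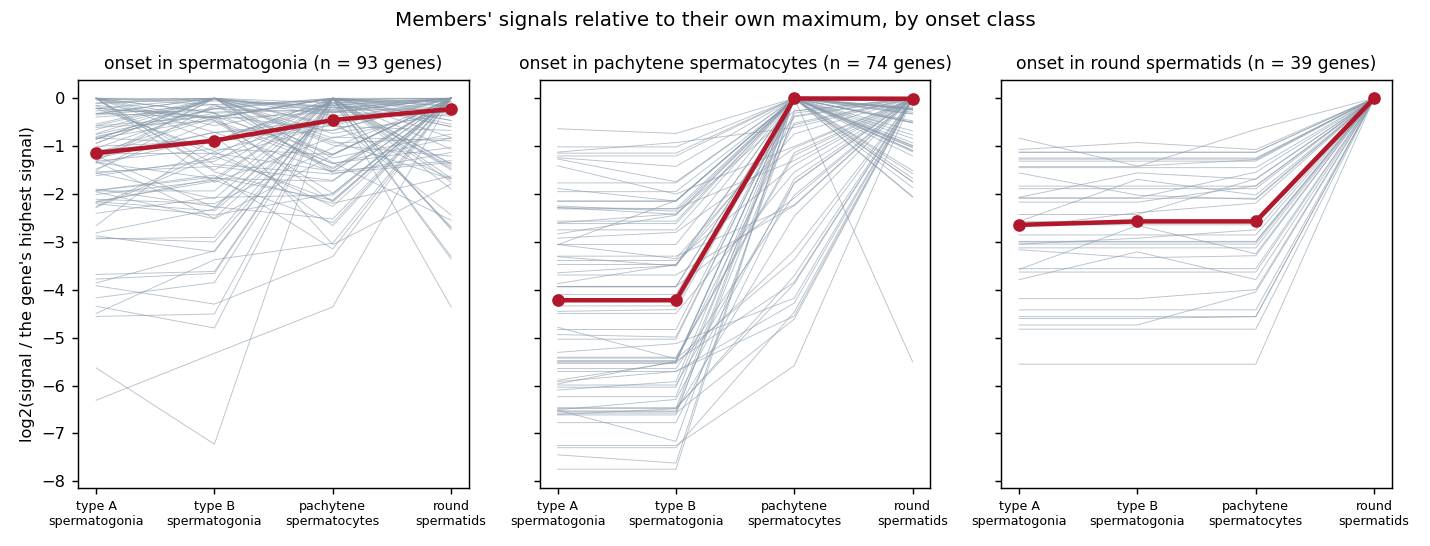
Each grey line is 1 detected member, drawn over the 4 cell types as the log2 of its signal (raised to the floor where lower) relative to its own highest signal, in 3 panels by cell type of onset, and the red line is the median. Members with onset in pachytene spermatocytes had a median of -4.22 in type A and in type B spermatogonia and of -0.01 in round spermatids. The latter median covers unlike courses. Of these 74 members, 26 had a clear peak in round spermatids and 15 were at least 2-fold lower there than in pachytene spermatocytes.

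The cell type of the highest signal was also late. A clear peak was called where the highest signal was no less than 2-fold above that of every other cell type. Round spermatids held the clear peak of 79 members (38.35%, against 7.06% of all named genes and 6.67% of other RIKEN clone genes). Pachytene spermatocytes held that of 24 (11.65%, against 4.52% and 4.29%), and spermatogonia that of 3 (1.46%, against 3.81% and 4.76%). The remaining 100 members had no clear peak. In 38 of these, pachytene spermatocytes and round spermatids were both at least 2-fold over both kinds of spermatogonia, in 20 all 4 cell types lay within 2-fold, in 2 the spermatogonia were at least 2-fold over both later types, and 40 had another pattern. Counted together, 146 members (70.9%) were at least 2-fold over both kinds of spermatogonia in pachytene spermatocytes or in round spermatids. The same held for 23.0% of all detected named genes and 22.9% of other RIKEN clone genes.

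**Figure D2:**
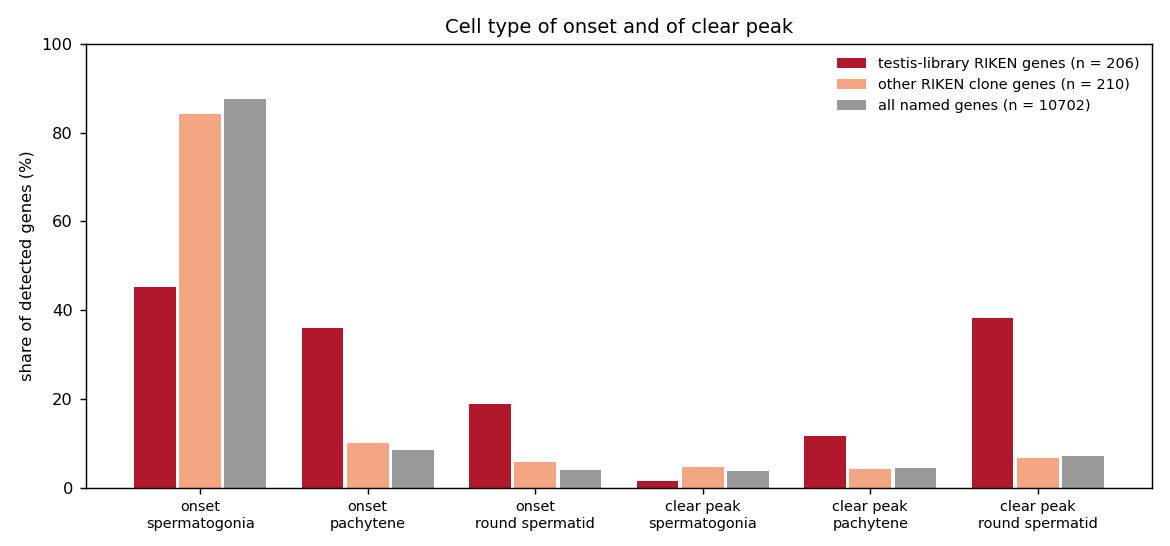
Bars give the percentage of detected genes with onset in, or a clear peak in, spermatogonia (type A or type B), pachytene spermatocytes and round spermatids, for the testis-library genes (206), RIKEN clone genes of other libraries (210) and all named genes (10702). The testis-library bars are the tallest of the 3 for onset and peak in both later cell types, and the lowest for both spermatogonial classes.

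Few members differed between type A and type B spermatogonia, as few genes of the arrays did. Of 160 members above the floor in at least 1 of them, 0 differed by 4-fold or more in either direction. For type B over type A, 0.167% of all named genes were that much higher and 0.176% that much lower. At 2-fold, 7 (4.38%) were higher and 8 (5%) lower, near the 3.92% and 3.94% of all named genes. The median log2 ratio was 0.15, beside 0.01 for all named genes, and with arrays scaled to bacterial spike-in controls these medians were -0.55 and -0.76. The highest ratio was that of the protein-coding gene 1700125H20Rik, with 41.9, 182.9, 30.2 and 316.6 units in type A, type B, pachytene and round spermatid samples, at least 3.66-fold higher in type B. Its other probe set stayed under the floor in all 4, with a highest reading of 20.4 units. The lowest was that of 4930430F08Rik, with 169.0, 47.0, 96.4 and 91.2 units, at least 3.38-fold lower in type B against the floor. The brightest negative control on that type B array read 103.5 units, so this ratio can be overstated. The other probe set of 4930430F08Rik read 8.5, 23.8, 150.6 and 13.5 units and was under the floor in both spermatogonial samples.

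At the step from type B spermatogonia to pachytene spermatocytes most of the members that differed were higher. Of 212 members above the floor in at least 1 of these cell types, 67 (31.6%) had a pachytene signal at least 4-fold above that of type B, beside 7.9% of all named genes and 5.34% of other RIKEN clone genes. Of the 67, 40 were at least 8-fold, 28 at least 16-fold and 15 at least 32-fold higher, and for 39 the ratio was a lower bound because type B was at the floor. Among the 970 named genes at least 4-fold higher here, 479, 230 and 119 reached the same ratios. Type B readings between the floor and the detection limit entered these counts unchanged. Under the rule for genes named individually, some of the 67 fall below 4-fold. 1700007L15Rik, for example, goes from 4.47-fold to at least 2.88-fold. With the floor doubled, to the detection limit, 48 of 164 members (29.27%) were at least 4-fold higher. The share of all named genes was not recomputed at that floor. In the other direction 1 member (0.47%) was at least 4-fold lower, beside 5.44% of all named genes. The median log2 ratio of the members was 0.70, beside -0.28 for all named genes and -0.23 for other RIKEN clone genes. With arrays scaled to a common median, the members' median was 1.11 and that of all named genes 0.19.

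Of the 5 widest differences, 4 belonged to genes with a spermatogonial signal under the detection limit that stayed high afterwards. 1700108J01Rik, a long noncoding RNA, read 4.6, 4.8, 10744 and 7585 units in type A, type B, pachytene and round spermatid samples, at least 215-fold higher in pachytene than in type B. The protein-coding gene 4930544G11Rik read 56.4, 14.8, 9838 and 8342 units, at least 197-fold higher. Both later cell types were high and both spermatogonial types were under the detection limit for each of them. Protein-coding 1700019A02Rik followed with 78.7, 24.6, 5793 and 7183 units, at least 116-fold higher, although its other probe set read 182.5, 281.7, 915.0 and 840.3 units, 3.25-fold higher. The noncoding RNA 1700026J12Rik read 13.2, 19, 4899 and 2734 units, at least 97.9-fold higher. Of these 4 genes the round spermatid signal was within 2-fold of the pachytene signal.

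Other members were above the floor in type B spermatogonia, mostly under the detection limit. The noncoding RNA 1700110I01Rik read 38.4, 56.6, 3419 and 1602 units, at least 33.0-fold higher in pachytene than in type B. 1700051A21Rik, also noncoding, read 51.3, 66.6, 3040 and 2485 units, at least 29.4-fold higher, and its second probe set read 233.1, 271.2, 2237 and 1321 units, 8.25-fold higher. In both probe sets the meiotic and haploid samples lay above both spermatogonial samples. 4933432K03Rik, a noncoding RNA, read 147.5, 152.9, 3472 and 2517 units, and was thus detected in all 4 cell types. 1700086L19Rik, a noncoding RNA, went on rising, with 9.6, 58.1, 1417 and 4547 units. Of the 67 members that had gone up 4-fold or more at this step, 35 were within 2-fold afterwards, 19 were at least 2-fold lower in round spermatids, 6 were 2-fold to 4-fold higher and 7 were at least 4-fold higher again. Of the 970 named genes higher by 4-fold at this step, 62.2% were within 2-fold afterwards, beside 52.2% of the members, and 27.3% were at least 2-fold lower, beside 28.4%.

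Some members with a synonym that names a product were seen after their values to follow this course. 1700020D05Rik, listed in RefSeq also as mage-g2, read 20.9, 23.3, 3624 and 4679 units. The pseudogene 1700123L14Rik, with the synonym Nup50, a name of a nuclear pore protein, read 6.7, 4.5, 4467 and 3793 units. 1700016K19Rik, also called Liat1 after its binding to the arginyltransferase ATE1, read 42.7, 46.5, 930.7 and 3175 units. By these probe sets the 3 genes were under the floor in both spermatogonial samples and high in both later ones. The second probe set of 1700016K19Rik read 96.7, 78.1, 67.1 and 90.5 units, under the detection limit in all 4, so its course rests on 1 probe set.

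Genes that were high in pachytene spermatocytes and fell away again were fewer. The clear peak in pachytene spermatocytes was held by 17 long noncoding RNAs and 7 protein-coding genes. Of all 206 detected members, 7 were detected in pachytene spermatocytes and in no other cell type. The share of all named genes with this pattern was not counted, so whether 7 is many or few is open. The sharpest was 1700040D17Rik, a long noncoding RNA with 74.1, 71.5, 2267 and 41.4 units, at least 22.6-fold over the next highest cell type. It was at least 21.9-fold higher in pachytene than in type B and at least 45.3-fold lower in round spermatids than in pachytene. Protein-coding 4930524B15Rik read 125.4, 131.0, 1607 and 157.0 units, 10.2-fold over the next highest. The noncoding RNA 4933404O12Rik read 228.7, 233.3, 1748 and 176.8 units, 7.49-fold over the next highest. These 2 genes had about the same signal before and after the pachytene stage.

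A further 3 genes with pachytene peaks had unequal flanks. Protein-coding 4930579G24Rik read 432.8, 343.4, 3171 and 154.8 units, lower in round spermatids than in spermatogonia. 1700029M20Rik, noncoding, read 151.1, 47.3, 7485 and 1119 units, at least 150-fold higher in pachytene than in type B and 6.69-fold lower in round spermatids than in pachytene. Its second probe set gave the same order, with 25.1, 31.9, 5564 and 1363 units. Protein-coding 1700102P08Rik read 148.6, 108.5, 3017 and 460.5 units. The last pair kept a higher signal in round spermatids than in spermatogonia.

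**Figure D3:**
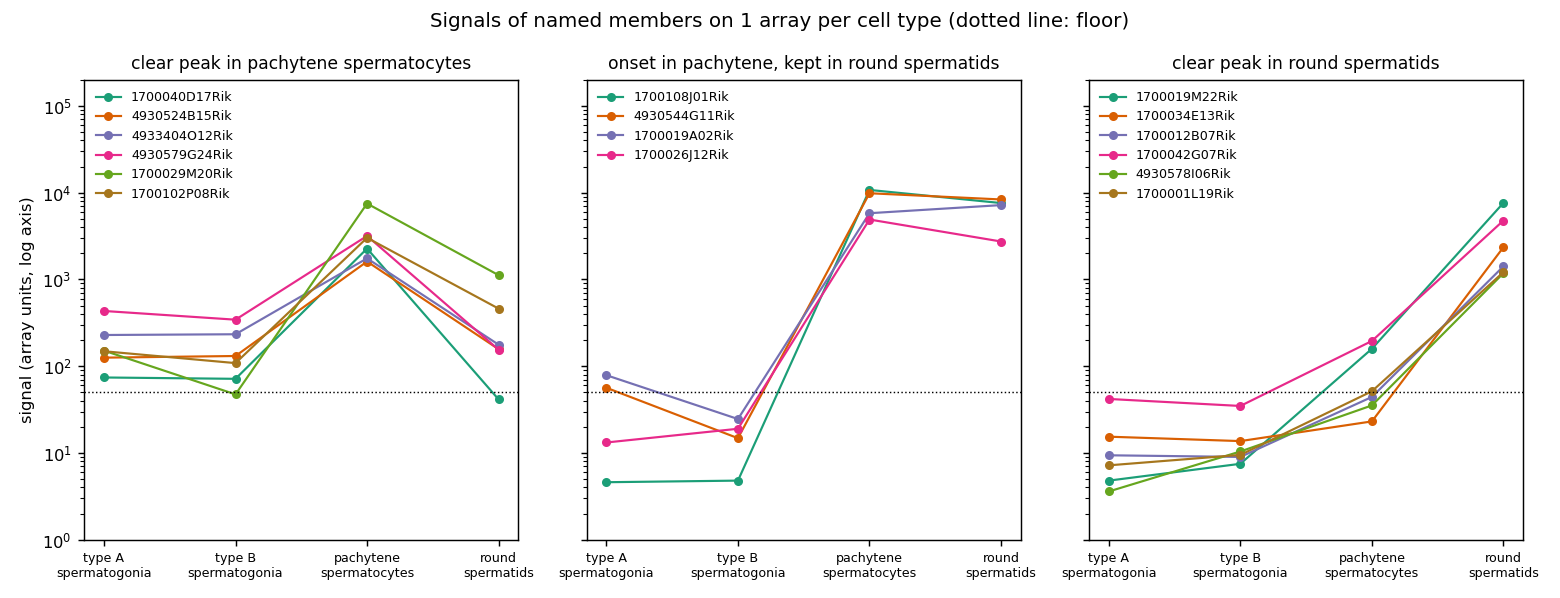
Signals in array units on a log axis over the 4 cell types for 16 named members in 3 panels, with 1 array per cell type, so that no error bar can be drawn, and the floor as a dotted line. 1700040D17Rik drops from 2267 units in pachytene spermatocytes to 41.4 in round spermatids, 1700108J01Rik stays at 7585 units, and 1700034E13Rik reaches 2350 units only in round spermatids.

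Promoter windows from RefSeq (GRCm38.p6, 250 bases before to 50 bases after the annotated start) were found for 220 of the 294 members, 258 windows in all. They were searched on both strands for AACNGTT, the site bound by MYB proteins, because MYBL1 is the regulator tied to pachytene genes. The site was present in 4 of 23 windows of members with a clear pachytene peak (17.4%) and in 6 of 59 windows of members at least 4-fold higher at the pachytene step (10.2%). It was present in 3 of 75 windows of members with a round spermatid peak (4.0%) and in 4.5% of all 32851 windows. By onset the shares were 4 of 62 (6.5%) for pachytene spermatocytes and 3 of 43 (7.0%) for round spermatids, and members that were not detected held it in 5 of 73 (6.8%). All members together held it in 16 of 258 windows (6.2%). By gene type it was in 14 of 157 windows of long noncoding members (8.9%) and in 2 of 101 of protein-coding ones (2.0%). Members with a clear pachytene peak were mostly noncoding, and those with a round spermatid peak mostly protein-coding. These shares do not separate stage from gene type. The 4 windows of the pachytene peak class include that of 1700041B01Rik, which read 110.7 units in pachytene spermatocytes, little over the detection limit. On the same arrays Mybl1 itself read 243.8, 256.9, 1103 and 194.5 units, with its highest signal in pachytene spermatocytes. The following 4 windows belong to members described above that were high in pachytene spermatocytes, and the MYB site is in capitals. They were chosen because they hold the site, and a match of letters does not show binding.
4930524B15Rik: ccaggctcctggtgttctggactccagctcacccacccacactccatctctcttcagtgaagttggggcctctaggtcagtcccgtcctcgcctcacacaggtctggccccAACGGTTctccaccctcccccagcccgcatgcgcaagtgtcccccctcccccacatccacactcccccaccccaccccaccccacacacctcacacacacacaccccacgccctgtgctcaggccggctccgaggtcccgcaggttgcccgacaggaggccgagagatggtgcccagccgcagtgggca
4933404O12Rik: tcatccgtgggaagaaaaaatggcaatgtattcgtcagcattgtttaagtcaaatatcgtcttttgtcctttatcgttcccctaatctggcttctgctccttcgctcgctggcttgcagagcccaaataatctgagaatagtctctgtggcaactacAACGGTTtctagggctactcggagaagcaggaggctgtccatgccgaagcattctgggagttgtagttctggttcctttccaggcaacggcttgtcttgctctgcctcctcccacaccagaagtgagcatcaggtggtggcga
1700110I01Rik: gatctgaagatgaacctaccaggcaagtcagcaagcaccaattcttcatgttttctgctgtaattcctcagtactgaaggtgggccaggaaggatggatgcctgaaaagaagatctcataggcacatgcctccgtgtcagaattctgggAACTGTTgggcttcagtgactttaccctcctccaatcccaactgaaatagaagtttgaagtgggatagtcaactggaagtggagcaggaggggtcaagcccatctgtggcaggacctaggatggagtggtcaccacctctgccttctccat
1700026J12Rik: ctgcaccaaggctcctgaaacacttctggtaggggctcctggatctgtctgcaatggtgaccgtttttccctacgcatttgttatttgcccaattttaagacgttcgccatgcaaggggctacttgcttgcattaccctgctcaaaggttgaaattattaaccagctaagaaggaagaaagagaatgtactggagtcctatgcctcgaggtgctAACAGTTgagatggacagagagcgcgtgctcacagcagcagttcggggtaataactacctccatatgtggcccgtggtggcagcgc

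The window of 4930524B15Rik lies at chr11:31965383-31965682 on the plus strand, and its site begins 139 bases before the start. That of 4933404O12Rik lies at chr5:136918896-136919195 on the plus strand, with the site 93 bases before the start. That of 1700110I01Rik lies at chr14:3262152-3262451 on the plus strand, with the site 101 bases before the start. The window of 1700026J12Rik, at chr16:49255723-49256022 on the minus strand, has it 36 bases before the start. The gene 4930524B15Rik also stood out by base composition, with 67.0% G and C in its window, where the other 3 had 49.7% to 50%.

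At the step from pachytene spermatocytes to round spermatids, 52 of 239 members (21.76%) were at least 4-fold higher, beside 4.45% of all named genes and 1.73% of other RIKEN clone genes. Of the 52, 30 were at least 8-fold, 13 at least 16-fold and 2 at least 32-fold higher, and 18 of the ratios were lower bounds. Among the 499 named genes at least 4-fold higher here, 263, 124 and 30 reached the same ratios. Pachytene readings between the floor and the detection limit were likewise counted unchanged. 1700100L14Rik, for example, goes from 4.49-fold to at least 3.15-fold under the rule for genes named individually. With the floor doubled, 41 of 199 members (20.6%) were at least 4-fold higher. Of the 52, 45 had not been 4-fold higher at the preceding step, which is 86.5%, beside 90.6% (452 of 499) for all named genes that were higher here. Another 9 members (3.77%) were at least 4-fold lower in round spermatids, beside 2.28% of all named genes, and 7 of these 9 had first gone up by at least that much on entry into the pachytene stage, as had 101 of the 255 named genes that were lower here. The median log2 ratio was 0.39 for the members and -0.06 for all named genes.

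The largest ratio was that of 1700019M22Rik, which RefSeq lists as a noncoding RNA pseudogene. It read 4.8, 7.5, 158.8 and 7624 units, 48.0-fold higher in round spermatids than in pachytene spermatocytes. Protein-coding 1700034E13Rik read 15.4, 13.7, 23.1 and 2350 units, at least 47.0-fold higher, and its 3 earlier samples were all under the floor. The same held for protein-coding 1700012B07Rik, with 9.4, 9.0, 44.2 and 1416 units, at least 28.3-fold higher, although its second probe set stayed under the floor throughout, at 9.1, 14.2, 20.4 and 41.9 units. It held too for 4930578I06Rik, with 3.6, 10.4, 35.3 and 1180 units, and for 4930579F01Rik, with 2.4, 5.5, 39.9 and 1071 units, at least 23.6-fold and 21.4-fold higher.

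Other members exceeded the floor in pachytene spermatocytes and had a far higher signal in round spermatids. 1700042G07Rik, also named P3r3urf, read 41.9, 34.8, 195.3 and 4771 units, 24.4-fold higher in round spermatids than in pachytene. 4933411K16Rik read 14.9, 22, 356.8 and 7872 units, 22.1-fold higher, and was among the 7 members at least 4-fold higher at both later steps. 1700013F07Rik read 64.3, 74.6, 166.4 and 3888 units, 23.4-fold higher, and its second probe set gave 5.6, 2.7, 93.2 and 3839 units. 1700001L19Rik read 7.2, 9.5, 51.4 and 1213 units, at least 12.1-fold higher, with a pachytene signal barely over the floor. 1700003F12Rik read 96.9, 191.3, 374.3 and 7671 units, 20.5-fold higher, while its other 2 probe sets, on 2 designs, were under the detection limit in all 4 cell types. All 5 genes are protein-coding.

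Members with a product name among their synonyms, again chosen after their values were seen, included 3 of this kind. 1700019D03Rik, whose synonym smAKAP names a small anchoring protein of protein kinase A, read 9.0, 19.3, 10.9 and 396.9 units. 1700015G11Rik, also called Ccdc179 for its coiled coil, read 10.6, 31.3, 134.5 and 2610 units, while its other 2 probe sets were under the floor in all 4 samples, with highest readings of 34.0 and 23.3 units. 4930503B20Rik, also Samd13, read 14.4, 25.1, 18.7 and 118.9 units. The round spermatid sample was the highest for each, and for the last it was little over the detection limit.

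Among transcription regulators of meiosis and spermatids, chosen as a list of 16, 10 were measured. Going from type B spermatogonia to the pachytene stage, 6 of them differed upwards by 4-fold or more and 1 downwards. Over all named genes these shares were 7.9% and 5.44%. Rfx2, which binds the X-box of genes for cilia and flagella, read 28.8, 44.7, 950.7 and 950.9 units, so its later samples were level. Crem, the spermatid activator that binds the CRE, read 31.4, 42.0, 90.6 and 58.9 units and was under the detection limit in all 4. The CRE, TGACGTCA, was found in 1.8% of all promoter windows and in 0 of 75 windows of members with a round spermatid peak. The X-box letters GTTGCCAT or GTTACCAT were in 5 of these 75 windows (6.7%), in 4 of 62 windows of members with pachytene onset (6.5%), in 2 of 43 of those with round spermatid onset (4.7%), in 9 of 185 windows of detected members (4.9%) and in 2.0% of all windows. The following 3 windows hold X-box letters, in capitals, and the last also holds a MYB site, likewise in capitals. They show the letters in members with unlike patterns.
1700034J05Rik: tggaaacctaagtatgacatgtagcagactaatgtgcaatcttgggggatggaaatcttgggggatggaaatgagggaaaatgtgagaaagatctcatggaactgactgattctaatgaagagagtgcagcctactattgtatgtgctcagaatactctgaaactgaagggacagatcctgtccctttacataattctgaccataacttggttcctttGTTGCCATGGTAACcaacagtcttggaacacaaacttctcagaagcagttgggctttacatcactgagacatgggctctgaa
1700109H08Rik: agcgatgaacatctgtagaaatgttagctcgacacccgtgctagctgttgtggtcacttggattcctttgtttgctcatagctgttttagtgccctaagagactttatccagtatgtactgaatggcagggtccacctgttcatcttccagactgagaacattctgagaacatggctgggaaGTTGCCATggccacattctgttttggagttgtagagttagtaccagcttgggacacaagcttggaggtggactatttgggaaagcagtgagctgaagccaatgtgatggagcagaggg
1700041B01Rik: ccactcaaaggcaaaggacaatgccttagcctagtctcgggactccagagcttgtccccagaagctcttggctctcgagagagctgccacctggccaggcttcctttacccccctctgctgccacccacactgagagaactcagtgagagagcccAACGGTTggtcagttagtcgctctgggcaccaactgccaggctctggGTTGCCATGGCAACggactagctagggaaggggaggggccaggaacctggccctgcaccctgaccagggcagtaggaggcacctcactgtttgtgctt

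1700034J05Rik, whose window is at chr6:146954372-146954671 on the minus strand, holds overlapping matches on both strands that begin 32 and 26 bases before the start, and it read 129.0, 87.2, 219.8 and 499.8 units. 1700109H08Rik, at chr5:3571466-3571765 on the plus strand, has 1 match 68 bases before the start and read 53.3, 74.1, 232.7 and 3335 units. The noncoding RNA 1700041B01Rik, at chr15:78670388-78670687 on the plus strand, has overlapping matches 48 and 42 bases before the start and the MYB site 95 bases before it. It read 5.1, 14.5, 110.7 and 51.0 units. The former 2, both protein-coding, had their highest signal in round spermatids and the third in pachytene spermatocytes. The pachytene reading of the third was little over the detection limit, so its peak was at least 1.11-fold over the next highest cell type.

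Promoters of the pachytene and the spermatid classes differed in base composition as a description. Windows of members with a pachytene peak had a median of 59.0% G and C and held the GC box, GGGCGG, in 13 of 23 (56.5%). Those of members with a round spermatid peak had 48.3% and held it in 13 of 75 (17.3%). The values over all windows were 52.7% and 35.7%. The TATA box letters TATAAA were in 8.7% and 13.3% of the 2 classes and in 13.6% of all windows. The 10 such windows of the round spermatid class include several overlapping ones of the same gene, 1700116H05Rik, which raise that share. Some genes have more than 1 window, so windows are not independent.

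Protein-coding members and long noncoding RNAs parted at the last step. At the pachytene step 28 of 79 protein-coding members and 36 of 116 noncoding ones were at least 4-fold higher, with median log2 ratios of 1.07 and 0.49. At the round spermatid step 35 of 92 protein-coding members had risen at least 4-fold and 4 had dropped as far, and their median log2 ratio was 1.19. Among 130 noncoding members 13 had risen and 5 had dropped by as much, and the median was 0.05. A clear peak in round spermatids was held by 46 of 89 detected protein-coding members (51.7%) and by 28 of 101 noncoding ones (27.7%). A clear peak in pachytene spermatocytes was held by 7.9% and 16.8%. These differences between the 2 gene types were not tested. All named genes were not split in this way, so the counts do not show whether the gap is particular to the members.

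**Figure D4:**
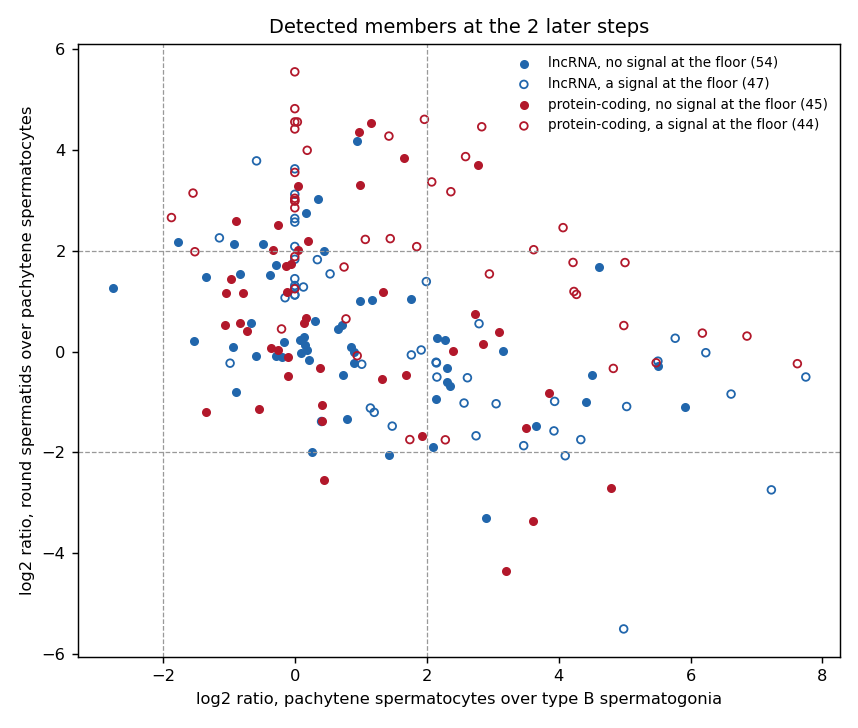
Each point is 1 detected member, with the log2 ratio of pachytene spermatocytes over type B spermatogonia on the x axis and that of round spermatids over pachytene spermatocytes on the y axis. Red marks protein-coding genes and blue long noncoding RNAs, open circles have a signal at the floor in at least 1 of these 3 cell types, and dashed lines mark 4-fold. The upper field holds mostly red points, as 35 protein-coding and 13 noncoding members were at least 4-fold higher in round spermatids.

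Few members were highest in spermatogonia. The 3 clear peaks were those of the noncoding RNA 4930520O04Rik, with 429.0, 147.9, 93.8 and 139.3 units, of protein-coding 4931414P19Rik, with 149.9, 57.5, 42.2 and 68.4 units, and of 1700040K01Rik, with 62.1, 148.1, 8.4 and 58.4 units. The former pair peaked in type A and the last in type B spermatogonia, by 2.90-fold, at least 1.5-fold and at least 1.48-fold over the next highest. Of the 3, 4930520O04Rik alone kept its peak with arrays scaled to a common median, with spike-in scaling and with the floor doubled. 4931414P19Rik had no clear peak in any of these settings, and 1700040K01Rik had none with a common median or the doubled floor and was not detected with spike-in scaling. The noncoding RNA 4933427D06Rik, at 436.9, 354.7, 52.5 and 126.5 units, was the 1 member with a reading at least 4-fold lower at the pachytene step, and against the detection limit it was at least 3.55-fold lower. Protein-coding 1700017B05Rik stayed high through the pachytene stage and was 5.88-fold lower after it, with 1379, 926.7, 1261 and 214.5 units. Its other probe set, with 412.2, 268.5, 546.1 and 212.4 units, moved the same way but by less. Since somatic markers were also highest in the spermatogonial samples, the cells that carried these transcripts cannot be told apart on these arrays.

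A group of 55 members (26.7%) was detected in all 4 cell types, beside 48.2% of all detected named genes and 42.4% of other RIKEN clone genes. The steadiest was the noncoding RNA 4921525O09Rik, with 176.5, 161.0, 171.4 and 168.6 units, 1.10-fold between highest and lowest. Protein-coding 1700020L24Rik read 1501, 1542, 1289 and 1319 units, 1.2-fold. Noncoding 4930500F04Rik and 4933431E20Rik, protein-coding 1700001P01Rik and noncoding 1700061F12Rik ranged over 1.22-fold, 1.24-fold, 1.28-fold and 1.29-fold by the probe set chosen. For 1 SD the control probe sets spread over 1.2-fold, 1.17-fold and 1.35-fold at the 3 steps. That SD is of a single ratio between cell types, not of a range over all 4. It therefore does not show whether these ranges exceed technical spread. Other probe sets did not all bear out the steady course. That of 1700061F12Rik read 4.4, 4.6, 3.0 and 998.4 units, and the gene had a clear round spermatid peak with arrays scaled to a common median or without special endings. That of 4933431E20Rik read 91.7, 103.6, 46.4 and 36.6 units, and those of 4930500F04Rik and 1700001P01Rik stayed under the floor.

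Only 6 members lie on the X chromosome, which is silenced in pachytene spermatocytes, and 3 of them were detected. Protein-coding 1700080O16Rik read 116.9, 145.8, 40.3 and 443.4 units, lowest in pachytene and highest in round spermatids. 1700011M02Rik read 384.7, 234.9, 280.6 and 71.0 units, with a second probe set under the detection limit in all 4, and 1700018G05Rik read 141.3, 37.7, 139.3 and 5.5 units. The latter are neighbours in the RefSeq table and were both lowest in round spermatids, and in neither was the pachytene signal under that of type B. Of the 3, 0 had onset in pachytene spermatocytes, beside 73 of 194 detected autosomal members.

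The shares differed between the libraries named by the prefixes, a difference that was not tested. With the prefix 1700, 51 of 126 detected members (40.5%) had onset in pachytene spermatocytes and 55 (43.7%) a clear peak in round spermatids. With 4930 these were 13 of 48 (27.1%) and 16 (33.3%). With 4933, 5 of 18 (27.8%) had pachytene onset and 3 (16.7%) a round spermatid peak, and 14 (77.8%) had no clear peak. The other 3 prefixes held 14 detected members.

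The signals of a gene depended on which probe set was read. Of the members, 70 had several probe sets. Among pairs of probe sets of the same member, 14.3% (6 of 42) differed in ratio by more than 2-fold at the type B step, 50% (29 of 58) at the pachytene step and 48.6% (34 of 70) at the round spermatid step. Where 1 probe set of a pair was at least 4-fold higher in pachytene spermatocytes, the other was at least 2-fold higher in 14 of 29 pairs, and at the round spermatid step in 7 of 21 pairs. Pairs were not counted over all named genes, so these counts do not show whether the members differ from the arrays at large. For 6 members the probe sets went opposite ways by at least 2-fold. 1700001C19Rik, for example, read 798.4, 1158, 791.7 and 361.7 units by the probe set chosen here and 70.2, 65.4, 106.9 and 2776 by another. Protein-coding 1700029I15Rik, with 79.2, 41.8, 210.9 and 2178 units, had a second probe set with 142.2, 96.7, 104.0 and 24.5 units. The centriolar satellite gene 4933427D14Rik, also Kiaa0753, read 639.5, 516.9, 248.0 and 360.1 units by 1 probe set and 95.6, 75.3, 353.5 and 401.3 by another. The other 3 were 1700001O22Rik, 1700025G04Rik and 4930588J15Rik, and the stage of all 6 is uncertain. Special endings such as _f_at, which mark probe sets designed under relaxed rules, represented 101 of the 294 members and 82 of the 206 detected ones.

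**Figure D5:**
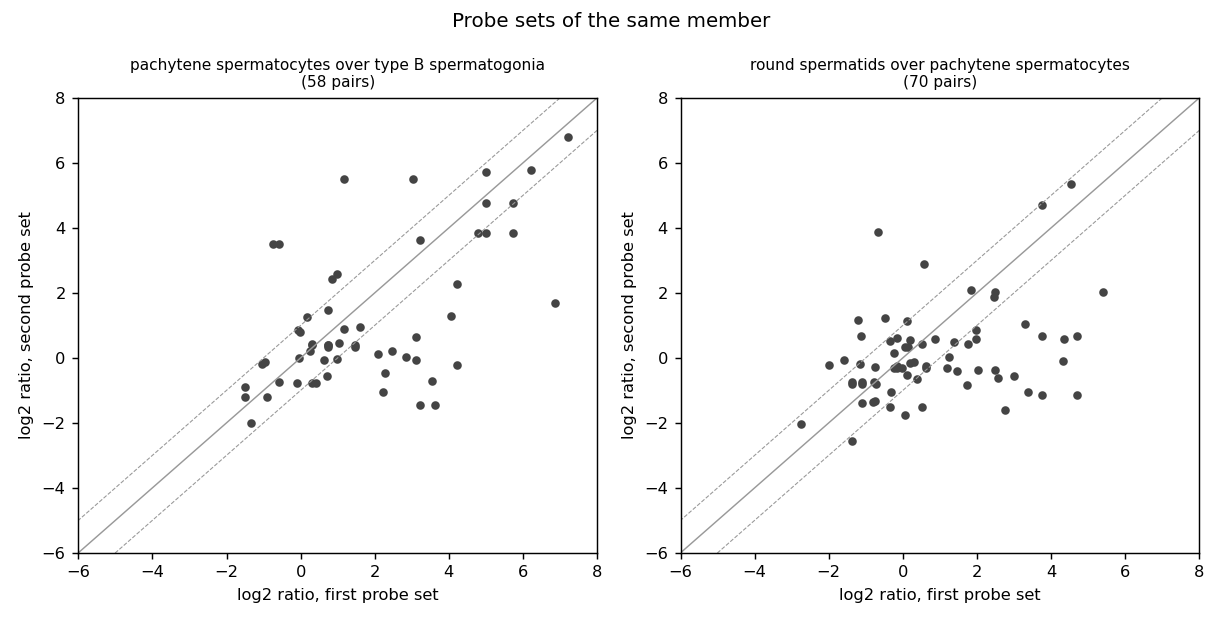
Each point is a pair of probe sets of the same member with the log2 ratio of the first on the x axis and of the second on the y axis, for pachytene spermatocytes over type B spermatogonia (58 pairs) and round spermatids over pachytene spermatocytes (70 pairs). The solid line marks equal ratios and the dashed lines 2-fold, and 29 and 34 pairs lie outside the dashed lines.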

How the data were processed

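RNA of 4 germ cell types was measured on 12 arrays. The authors deposited intensity signals per probe set. Per the submitters' processing notes MAS5 made them, and each array has a 2% trimmed mean of up to 125.1. From these deposited signals, arrays of a design were scaled to the geometric mean of their trimmed means, a floor was set at 0.4 of it, and log2 was taken. A gene was represented by its probe set with the highest mean signal. Ratios are within a design. The platform annotation named the probe sets (29131 with 1 symbol, 724 with several, 6846 with none of 36701). Python 3.11.15, pandas 2.3.3, NumPy 2.4.6, SciPy 1.17.1 and matplotlib 3.10.9 were used, and the counting was tested on simulated data. The members, lists and thresholds were chosen with earlier results of these data known. Genes were named for the largest ratios per cell type and per step, the smallest range, X linkage or opposed probe sets, and further ones after their values were seen as stated. No gene had been renamed by RefSeq, so groups by new name were empty. Alternatives covered scaling, floor, detection limit, thresholds, designs, and the choice and filtering of probe sets. Depth is the signal over background. Precision is limited by having 1 array per group.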

Additional observations from a re-analysis of the deposited data

How the results depend on the processing

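With 1 array per group no array could be left out and no spread between replicates exists. No paired analysis was possible because each cell type has 1 array per design. Across the alternatives 12 shares were recomputed in 159 settings, and 130 stayed within the exact (Clopper-Pearson) 95% binomial interval of the reported share, which covers counting of genes only. Some of the 130 could not have moved. The detection limit was held when the floor was halved or doubled, so the onset shares were fixed in these settings. Clear peaks likewise cannot change with a halved floor. Keeping only members still under their clone name left out just those not matched in RefSeq. Staying within the interval is therefore no check in these settings. The 29 that fell outside the interval follow. With a ratio threshold of 2-fold the shares higher and lower were 4.38% and 5% at the type B step, 43.87% and 6.13% at the pachytene step, and 37.66% and 13.81% at the round spermatid step. With U74Av2 alone, which carries few members, they were 50% and 0.00% at the pachytene step and 0.00% and 0.00% at the round spermatid step, onset was 62.50%, 25% and 12.50% in spermatogonia, pachytene spermatocytes and round spermatids, and clear peaks were 25% in round spermatids and 0.00% in spermatogonia. With U74Bv2 alone, onset in spermatogonia was 37.50% and clear peaks there 0.00%. Among genes with a highest signal of at least 4 floors, 43.51% and 30.95% were higher at the pachytene and round spermatid steps. With the floor doubled 0.00% were lower at the pachytene step. With a common median, onset in spermatogonia was 37.02%. With a detection limit of 1 floor, onset was 63.75% in spermatogonia and 21.51% in pachytene spermatocytes, and round spermatid peaks were 31.47%. With 4 floors, onset was 26.79% in spermatogonia and 32.14% in round spermatids. With a clear peak at 4-fold, peaks were 3.40% in pachytene spermatocytes, 20.39% in round spermatids and 0.00% in spermatogonia. These settings altered a limit, the scaling, or the genes and probe sets counted. The cause of the changes was not tested. A common median shifted the log2 ratios of all genes by a median of -0.12, 0.52 and 0.00 at the 3 steps, and spike-in scaling by -0.82, 0.67 and -0.20.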
